A study of Homo sapiens with 4 samples.

Results

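Surface targets of neuroblastoma immunotherapy were followed in RNA-seq of BE(2)C cells upon MYCN knockdown. The group held 9 of the 26364 genes listed in each sample, chosen by symbol with earlier results of these data known. B4GALNT1, ST8SIA1 and ST3GAL5 encode enzymes that make the ganglioside GD2, and CD276, GPC2, L1CAM, NCAM1, DLK1 and PTK7 encode surface proteins targeted in this tumor. BE(2)C is an established human neuroblastoma cell line with amplified MYCN. Both groups received siRNA with Lipofectamine 2000 for 6 h, at 80 nM as the labels give it, and total RNA was taken on the following day. The study's methods state a lower final concentration, and which was used is not settled here. The 2 Ctrl samples received a non-targeting siRNA and the 2 MYCN KD samples an siRNA against MYCN. The study's methods call the samples of a group biological replicates, and the labels do not say whether they came from separate cultures, so p-values measure only the spread between these samples. Transcripts were measured, and neither the proteins nor the ganglioside itself.

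GD2 is a sialic acid-bearing glycolipid of the outer membrane that is abundant on neuroblastoma cells and is the target of the antibody dinutuximab. Its synthesis runs in order from lactosylceramide to GM3, to GD3 and to GD2, and each step has its own Golgi enzyme. The protein targets differ in function, from immune regulators to neural adhesion molecules, and share an exposed extracellular part that antibodies or engineered T cells can bind.

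Upon MYCN knockdown the transcripts of CD276 and L1CAM nearly doubled, NCAM1 and B4GALNT1 rose less, and DLK1 was slightly higher, with a call that several other settings did not keep. ST3GAL5 fell. GPC2 and PTK7 did not pass the test, and ST8SIA1 had too few reads to be tested. Values are RPKM, reads scaled by gene length and by library total, and differences were tested with limma on log2(RPKM + 1) across the 11411 genes whose mean reached 1 RPKM, at a Benjamini-Hochberg adjusted p under 0.05. Of the 8 members tested, 5 were higher and 1 was lower in MYCN KD, against 25.3% of all tested genes higher and 22.8% lower. In 7 of the 8 the values of the groups did not overlap, which held for 76.2% of all tested genes. The median log2 fold change was 0.28 over these 8 members and 0.03 over all tested genes. Because the members were chosen with earlier results of these data known, these contrasts with all tested genes are not a test of the group. All 8 were above the minimum of 1 RPKM in every sample. An exact permutation test of 2 samples against 2 cannot give a p under 0.3333 and was not used for calls. The fit took the 4 samples as independent. Deviations of same-numbered samples from their group means correlated at -0.985, which limits every SE, interval and p-value given here.

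**Figure D1:**
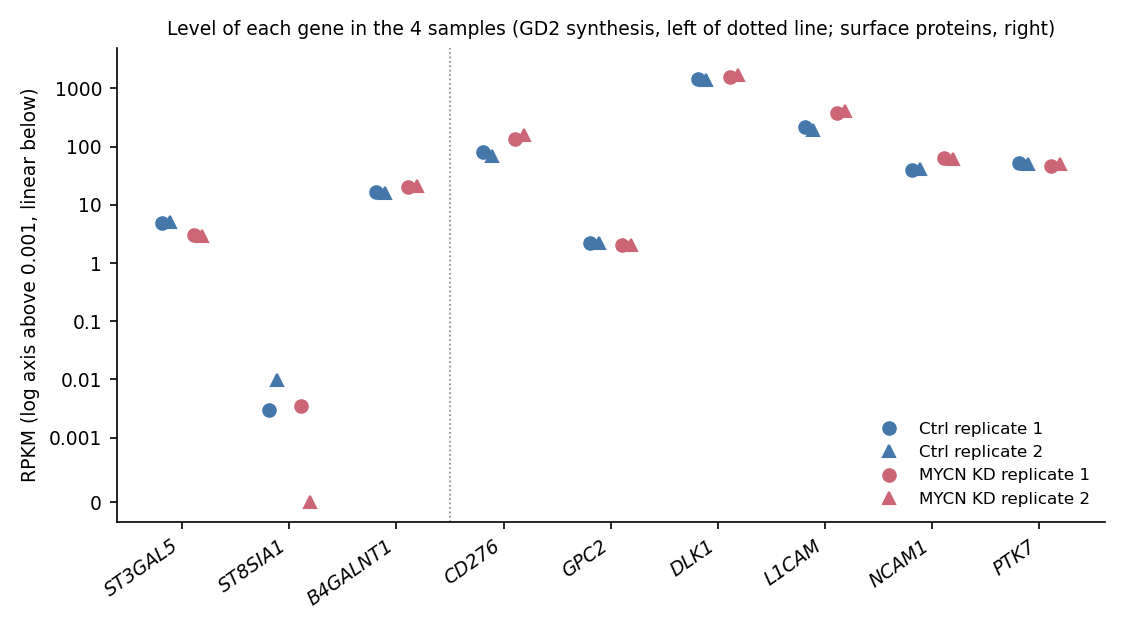
RPKM of each of the 9 genes (vertical axis, logarithmic above 0.001 and linear below) in the 2 Ctrl samples (blue) and the 2 MYCN KD samples (red), with replicates as circles and triangles. DLK1 lies between 1391.3 and 1688.5 RPKM, GPC2 and ST3GAL5 lie under 6, and ST8SIA1 lies at or under 0.01.

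The levels spanned a wide range within the same cells. In the Ctrl samples DLK1 ranked 26 of 26364 genes by mean RPKM, L1CAM 327, CD276 1096, PTK7 1620, NCAM1 2045, B4GALNT1 4258, ST3GAL5 7702, GPC2 9766 and ST8SIA1 18211. In MYCN KD the order from the top was DLK1 at rank 19, L1CAM at 128, CD276 at 464, NCAM1 at 1288, PTK7 at 1639, B4GALNT1 at 3540, ST3GAL5 at 9294, GPC2 at 10163 and ST8SIA1 at 18969. NCAM1 and PTK7 exchanged places, and the order of the others was the same in both groups. The 2 samples of any member did not overlap with those of its neighbour in this order, in either group.

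MYCN, the targeted gene on chromosome 2 (GRCh37, chr2:16080672-16087129, plus strand), was read at 1067.9 and 1073.0 RPKM in Ctrl and at 720.2 and 718.0 RPKM in MYCN KD. It fell by 0.57 on the log2 scale (SE 0.0286, limma adjusted p = 0.00361). The reads behind the RPKM values, recovered from their steps, came to between 29055819 and 34142988 per sample. All 12 adrenergic neuroblastoma markers of the list, chosen like the other lists with earlier results of these data known, were tested. They summed to 4007 and 3688 RPKM in Ctrl and to 5176 and 5616 RPKM in MYCN KD, with 7 higher and 2 lower. CHGA, which encodes chromogranin A, was the highest of them, at 1793 and 1627 RPKM in Ctrl and at 2068 and 2273 RPKM in MYCN KD. The 2 lower markers did not pass when any 1 sample was left out or when the samples were rescaled. Among 11 markers of blood, endothelial and epithelial cells, PTPRC was at most 0.00464 RPKM and KRT5 was listed at 0. The 11 summed to 20.8 and 19.0 RPKM in Ctrl and at 37.2 and 40.8 RPKM in MYCN KD. KRT19, a keratin, and CD68, a lysosomal protein, carried most of this sum and were higher in MYCN KD by 0.85 and 1.23 on the log2 scale (limma adjusted p = 0.0044 and 0.00918). Of 10 mesenchymal markers, 6 passed the filter, of which 4 were higher, none was lower and 2 did not pass. VIM was the highest, at 154 and 159 RPKM in Ctrl and at 235 and 227 RPKM in MYCN KD, and PRRX1 was listed at 0. COL1A1 and DCN had the largest changes of those tested and rose by 0.67 and 0.66 on the log2 scale (limma adjusted p = 0.00365 and 0.0269). COL1A1 was at 0.726 and 0.739 RPKM in Ctrl and at 1.78 and 1.74 RPKM in MYCN KD. It thus passed the filter only through the group where it was higher, and its call, counted among the 4, gives no support for a rise. The part of these marker genes in the members' values was not tested. In bulk RNA, fewer cells of a type and less RNA per cell cannot be told apart.

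The start regions of members that moved furthest are shown because MYCN with its partner MAX binds the E-box CACGTG. RefSeq promoter windows (GRCh38.p14, located on GRCh37 by exact match) were at hand for 6 of the 9 members, as 13 windows of 300 bases, from 250 before to 50 after a start. B4GALNT1, NCAM1 and DLK1 had no window. The sequences below are the 250 bases before the start on the gene's strand, 5′ to 3′, for ST3GAL5 (chr2:86116114-86116363, minus strand), CD276 (chr15:73976474-73976723, plus strand) and L1CAM (chrX:153141400-153141649, minus strand), all in GRCh37. Capitals mark the GC box GGGCGG, the CCAAT box CCAAT and the cyclic AMP response element TGACGTCA, on either strand and with overlapping matches run together.
ST3GAL5: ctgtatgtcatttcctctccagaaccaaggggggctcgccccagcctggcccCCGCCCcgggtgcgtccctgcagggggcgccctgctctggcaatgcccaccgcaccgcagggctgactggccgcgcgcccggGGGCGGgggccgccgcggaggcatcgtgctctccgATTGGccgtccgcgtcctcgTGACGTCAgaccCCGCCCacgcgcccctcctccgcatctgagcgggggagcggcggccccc
CD276: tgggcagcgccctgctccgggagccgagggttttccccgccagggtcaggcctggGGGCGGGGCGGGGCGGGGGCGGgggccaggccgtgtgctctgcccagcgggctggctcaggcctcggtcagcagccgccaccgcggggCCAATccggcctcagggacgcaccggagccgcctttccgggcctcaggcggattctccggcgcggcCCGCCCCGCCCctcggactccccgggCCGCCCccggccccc
L1CAM: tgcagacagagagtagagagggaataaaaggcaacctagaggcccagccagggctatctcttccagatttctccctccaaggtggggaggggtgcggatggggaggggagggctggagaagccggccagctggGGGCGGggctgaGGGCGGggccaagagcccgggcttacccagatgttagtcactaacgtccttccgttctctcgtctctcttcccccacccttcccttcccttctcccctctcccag

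CACGTG was found in none of the 13 windows (0), while 7.256% of 35116 RefSeq windows of the same length held it. That says only that these letters are not in these windows. The starts of the printed sequences lie inside the gene spans given below for ST3GAL5, CD276 and L1CAM. Annotated 5′ ends further upstream were not scanned for these genes. TGACGTCA was found in the ST3GAL5 sequence above, 61 bases before the start, and in 1.848% of all windows. The CD276 sequence held 7 matches to GGGCGG, some of them overlapping, and the L1CAM sequence held 2. GGGCGG was in 44.954% and CCAAT in 34.614% of all windows. The GC content was 76.0% in ST3GAL5, 80.8% in CD276 and 62.4% in L1CAM.

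ST3GAL5, the GM3 synthase that opens the ganglioside pathway by adding sialic acid to lactosylceramide, was read at 4.89 and 5.17 RPKM in Ctrl and at 3.05 and 2.89 RPKM in MYCN KD. Both MYCN KD samples were below both Ctrl samples. The gene (chr2:86064243-86132322, minus strand) had 409 and 405 reads in Ctrl and 217 and 219 reads in MYCN KD. Its mean was 5.03 ± 0.198 RPKM (SD, n = 2) in Ctrl and 2.97 ± 0.113 RPKM (SD, n = 2) in MYCN KD, a ratio of 0.590. ST3GAL5 fell by 0.60 on the log2 scale (SE 0.0507, 95% interval -0.75 to -0.45, limma adjusted p = 0.00588), and 6.958% of tested genes had a lower log2 fold change. It was the only member called lower. The antisense gene ST3GAL5-AS1 had 2 and 1 reads in Ctrl and 0 in both MYCN KD samples.

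ST8SIA1, the GD3 synthase that adds the next sialic acid and commits GM3 to GD2, was nearly without reads in these cells. It was listed at 0.00302 and 0.00966 RPKM in Ctrl and at 0.00354 and 0 RPKM in MYCN KD, which came from 1 and 3 reads and from 1 and 0 reads over a gene model of 9714 bases (chr12:22216707-22589975, minus strand). These reads are counts after RUVSeq and not raw sequenced reads. Their exact Poisson 95% intervals, 0.025 to 5.572, 0.619 to 8.767, 0.025 to 5.572 and 0 to 3.689, therefore only approximate counting error and cover no other error. A count of 0 allows up to 3 reads, which would be 0.00998 RPKM in MYCN KD replicate 2. The groups were both at or under that level, so no fold change was given and a difference was not detectable from counts this low.

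B4GALNT1, which turns GD3 into GD2 and GM3 into GM2, was read at 16.4 and 15.9 RPKM in Ctrl and at 20.7 and 21.4 RPKM in MYCN KD. Both MYCN KD samples were above both Ctrl samples. The gene (chr12:58017192-58027022, minus strand) had 2179 and 1969 reads in Ctrl and 2330 and 2569 reads in MYCN KD. Its mean was 16.2 ± 0.409 RPKM (SD, n = 2) in Ctrl and 21.0 ± 0.517 RPKM (SD, n = 2) in MYCN KD. B4GALNT1 rose by 0.36 on the log2 scale (SE 0.0431, 95% interval 0.23 to 0.49, limma adjusted p = 0.0101). Its exons share 2136 bases with SLC26A10P on the opposite strand, which the files list as SLC26A10 at 11.5 and 11.2 RPKM in Ctrl and at 13.4 and 13.8 RPKM in MYCN KD. SLC26A10 rose by 0.24 (limma adjusted p = 0.0203). The strand setting of the counting is not given in the sources used here, and without strand the reads of the overlapping genes cannot be told apart.

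The first and last enzymes of the pathway moved in opposite directions. B4GALNT1 exceeded ST3GAL5 by 3.36-fold and 3.07-fold in the Ctrl samples and by 6.77-fold and 7.40-fold in the MYCN KD samples, as ratios of RPKM. Either MYCN KD ratio was above the Ctrl ratios. ST8SIA1, between them in the pathway, was lower than both enzymes in every sample.

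**Figure D2:**
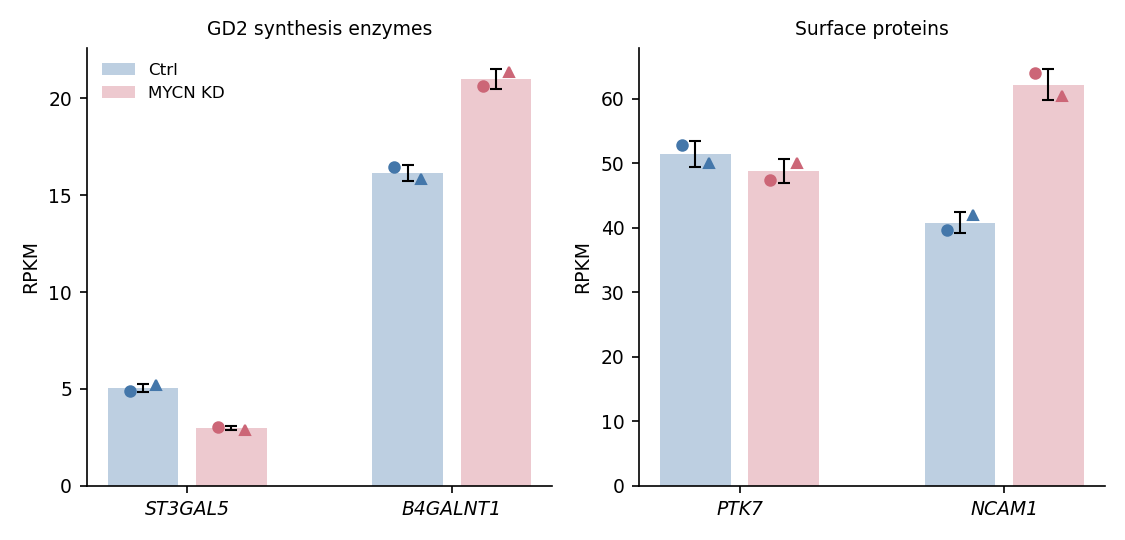
RPKM (vertical axes, from 0) of ST3GAL5 and B4GALNT1 (left) and of PTK7 and NCAM1 (right) in Ctrl (blue) and MYCN KD (red), with bars at the mean of 2 samples, error bars of 1 SD and each sample as a point. ST3GAL5 is lower and B4GALNT1 higher in MYCN KD, and NCAM1 lies below PTK7 in Ctrl and above it in MYCN KD.

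Genes that supply the GD2 pathway were also measured. Of 10 genes of precursor synthesis, from serine to lactosylceramide, 1 was higher, 1 was lower and 8 did not pass, with a median log2 fold change of 0.07. KDSR, a reductase of early sphingolipid synthesis, was read at 2.73 and 3.28 RPKM in Ctrl and at 1.40 and 1.18 RPKM in MYCN KD and fell by 0.81 on the log2 scale (SE 0.0992, limma adjusted p = 0.0106). CERS2, a ceramide synthase and the highest of the list, was higher by 0.17 (limma adjusted p = 0.0326), a call lost whichever sample was left out (adjusted p from 0.1658 without Ctrl replicate 1 to 0.3073 without MYCN KD replicate 2). Without Ctrl replicate 2 or without MYCN KD replicate 2, 2 genes of the list, SPTLC1 and B4GALT6, passed as higher instead. Of 5 genes that make and deliver CMP-sialic acid, the sialic acid donor, 2 were lower and 3 did not pass. NANS, which makes the sialic acid phosphate, was read at 68.5 and 65.9 RPKM in Ctrl and at 48.7 and 50.6 RPKM in MYCN KD and fell by 0.43 (SE 0.0425, limma adjusted p = 0.00736). NANP, the phosphatase of the next step, was lower by 0.38 (limma adjusted p = 0.0288), and did not pass without Ctrl replicate 2 (0.07006), without MYCN KD replicate 2 (0.07195) or with the samples rescaled to the same total (0.05664).

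Among 11 enzymes of other ganglioside branches, 5 passed the filter, of which 2 were higher, 1 was lower and 2 did not pass, with a median of 0.35. ST3GAL2, which adds sialic acid at the outer end of complex gangliosides, was read at 23.5 and 23.2 RPKM in Ctrl and at 39.7 and 40.3 RPKM in MYCN KD and rose by 0.75 (SE 0.0347, limma adjusted p = 0.00359). ST8SIA3, a relative of ST8SIA1 that also adds sialic acid to sialic acid, was read at 6.02 and 6.45 RPKM in Ctrl and at 8.83 and 8.26 RPKM in MYCN KD and rose by 0.40 (SE 0.0594, limma adjusted p = 0.0153). ST8SIA5, another relative, was at most 0.0244 RPKM. ST6GALNAC6 was the highest of the list by the mean over all 4 samples, at 40.0 and 37.5 RPKM in Ctrl and at 31.7 and 33.7 RPKM in MYCN KD. ST3GAL2 was above it in both MYCN KD samples. The difference of ST6GALNAC6 was -0.24 on the log2 scale (limma adjusted p = 0.0414). Its call was lost whichever sample was left out, with differences from -0.28 without Ctrl replicate 2 to -0.19 without Ctrl replicate 1.

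Of 10 genes of ganglioside breakdown, 8 passed the filter, of which 4 were higher, none was lower and 4 did not pass, with a median of 0.22. PSAP, the precursor of the saposin activators and the highest of the list, was read at 394.4 and 364.5 RPKM in Ctrl and at 489.3 and 528.1 RPKM in MYCN KD and rose by 0.42 (SE 0.0662, limma adjusted p = 0.0171). GALC, the galactosylceramidase, rose by 0.45 (SE 0.0654, limma adjusted p = 0.0148). NEU1, the lysosomal sialidase, was at most 0.00623 RPKM and B3GALT4, the GM1 synthase, at most 0.00383 RPKM. Both lie between 28 and 34 Mb of chromosome 6, where 185 of 228 listed genes (81.1%) were under 0.1 RPKM in all samples, against 36.3% of 870 listed genes on the rest of that chromosome. Values of genes from this stretch, which holds the MHC, are therefore given without a reading of their expression.

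CD276, also called B7-H3, a B7 family member of the cell surface that regulates T cells, was among the members with the largest log2 fold changes, beside L1CAM. It was read at 80.1 and 70.0 RPKM in Ctrl and at 137.1 and 156.2 RPKM in MYCN KD. The groups did not overlap, and the lower MYCN KD sample was well above the higher Ctrl sample. The gene (chr15:73976307-74006855, plus strand) had 9306 and 7608 reads in Ctrl and 13546 and 16438 reads in MYCN KD. Its mean was 75.0 ± 7.20 RPKM (SD, n = 2) in Ctrl and 146.6 ± 13.5 RPKM (SD, n = 2) in MYCN KD, a ratio of 1.95. CD276 rose by 0.96 on the log2 scale (SE 0.106, 95% interval 0.64 to 1.27, limma adjusted p = 0.00887), and 2.156% of tested genes had a larger log2 fold change. Of 9 other B7 family genes, 8 were under the filter. CD274, which encodes PD-L1, was at 0.0795 and 0.102 RPKM in Ctrl and at 0.252 and 0.193 RPKM in MYCN KD, from 10 and 12 and from 27 and 22 reads. C10orf54, which encodes the checkpoint protein VISTA, was at 0.209 and 0.151 RPKM in Ctrl and at 0.743 and 1.002 RPKM in MYCN KD. With no filter on low values both passed as higher (limma adjusted p = 0.04095 and 0.02004). NCR3LG1, which encodes the natural killer cell ligand B7-H6, was read at 8.17 and 7.96 RPKM in Ctrl and at 3.08 and 3.17 RPKM in MYCN KD and fell by 1.14 (SE 0.0422, limma adjusted p = 0.00359).

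L1CAM, a neural adhesion molecule of the immunoglobulin superfamily, was read at 213.6 and 196.4 RPKM in Ctrl and at 380.3 and 412.1 RPKM in MYCN KD. The MYCN KD samples were both far above the Ctrl samples. The gene (chrX:153126969-153151627, minus strand) had 38225 and 32925 reads in Ctrl and 57930 and 66839 reads in MYCN KD. Its mean was 205.0 ± 12.1 RPKM (SD, n = 2) in Ctrl and 396.2 ± 22.4 RPKM (SD, n = 2) in MYCN KD, a ratio of 1.93. L1CAM rose by 0.95 on the log2 scale (SE 0.0693, 95% interval 0.74 to 1.15, limma adjusted p = 0.00489), and 2.2% of tested genes had a larger log2 fold change. L1CAM stayed at nearly the same ratio to CD276, at 2.67 and 2.81 in Ctrl and at 2.77 and 2.64 in MYCN KD, and these ratios overlapped between the groups.

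NCAM1, also called CD56, the neural cell adhesion molecule, was read at 39.6 and 41.9 RPKM in Ctrl and at 63.9 and 60.4 RPKM in MYCN KD. Both MYCN KD samples were above both Ctrl samples. The gene (chr11:112831997-113149158, plus strand) had 11519 and 11430 reads in Ctrl and 15833 and 15940 reads in MYCN KD. Its mean was 40.7 ± 1.66 RPKM (SD, n = 2) in Ctrl and 62.2 ± 2.47 RPKM (SD, n = 2) in MYCN KD, a ratio of 1.53. NCAM1 rose by 0.60 on the log2 scale (SE 0.0533, 95% interval 0.44 to 0.75, limma adjusted p = 0.00639), and 8.264% of tested genes had a larger log2 fold change. NCAM1-AS1 shares 613 exon bases with NCAM1 on the opposite strand. This antisense gene had 25 and 21 reads in Ctrl and 41 and 48 reads in MYCN KD. It averaged 0.974 RPKM in Ctrl and 2.08 RPKM in MYCN KD. It thus passed the filter only through the group where it was higher. Its difference of 0.64 (limma adjusted p = 0.00643) therefore gives no support for a rise. Without a known strand setting, its reads cannot be told apart from those of NCAM1.

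ST8SIA2, an enzyme that puts polysialic acid on NCAM1, was read at 3.12 and 2.56 RPKM in Ctrl and at 7.40 and 8.96 RPKM in MYCN KD and rose by 1.26 (SE 0.129, limma adjusted p = 0.00782). ST8SIA4, the other polysialyltransferase, was under the filter, between 0.191 and 0.215 RPKM. Of 8 other adhesion molecules of the immunoglobulin superfamily, with L1 and NCAM family members among them, 6 passed the filter. Of these 3 were higher, 1 was lower and 2 did not pass, with a median of 0.33. ALCAM was read at 33.1 and 41.2 RPKM in Ctrl and at 86.1 and 69.5 RPKM in MYCN KD and rose by 1.05 (SE 0.167, limma adjusted p = 0.0177), and NFASC, which anchors axonal domains, rose by 0.61 (limma adjusted p = 0.00706). NRCAM, the highest of the list by the mean over all 4 samples, was read at 48.4 and 57.0 RPKM in Ctrl and at 81.0 and 69.2 RPKM in MYCN KD. ALCAM was above NRCAM in both MYCN KD samples. NRCAM rose by 0.50 (limma adjusted p = 0.0458), a call lost with no filter on low values (0.07185). The lower gene, MCAM, did not pass whichever sample was left out or with the samples rescaled to the same total. Of 3 tested sheddases, which release ectodomains such as that of L1CAM, none passed. BACE1, the highest, was read at 29.7 and 31.0 RPKM in Ctrl and at 33.0 and 31.7 RPKM in MYCN KD (log2 fold change 0.09, 95% interval -0.04 to 0.22). Without Ctrl replicate 2 or without MYCN KD replicate 2, 2 sheddases passed as higher.

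DLK1, an imprinted transmembrane protein related to Notch ligands, was the most abundant member, at 1470.7 and 1391.3 RPKM in Ctrl and at 1599.7 and 1688.5 RPKM in MYCN KD. The groups did not overlap, and MYCN KD replicate 1 lay closest to Ctrl replicate 1. The gene (chr14:101192042-101204561, plus strand) had 79840 and 70740 reads in Ctrl and 73902 and 83069 reads in MYCN KD. DLK1 was higher by 0.20 on the log2 scale (SE 0.051, 95% interval 0.05 to 0.35, limma adjusted p = 0.0473). The call was lost without Ctrl replicate 1 (0.24, adjusted p = 0.07267), without Ctrl replicate 2 (0.16, 0.2651), without MYCN KD replicate 1 (0.24, 0.07217) and without MYCN KD replicate 2 (0.16, 0.2304), in fits that took the variance from the trend over all genes. With all 4 samples it was also lost with no filter on low values (0.092) and without a variance trend (0.0552). Of its paralog and 4 imprinted neighbours, 3 passed the filter. RTL1 was read at 20.3 and 19.7 RPKM in Ctrl and at 36.8 and 38.0 RPKM in MYCN KD and rose by 0.87 (SE 0.0406, limma adjusted p = 0.00359), and the noncoding RNA MEG3 rose by 0.64 (SE 0.15, limma adjusted p = 0.0393), a call lost with no filter on low values (0.06321). MEG8, another noncoding RNA of the locus, was at 4.47 and 5.02 RPKM in Ctrl and at 5.04 and 4.48 RPKM in MYCN KD, with a log2 fold change of 0.00 (95% interval -0.24 to 0.25).

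GPC2, a glypican that carries heparan sulfate chains in the developing nervous system, was the lowest of the surface proteins, at 2.22 and 2.20 RPKM in Ctrl and at 2.05 and 2.06 RPKM in MYCN KD. The MYCN KD samples were just below the Ctrl samples. The gene (chr7:99767229-99775004, minus strand) had 196 and 182 reads in Ctrl and 154 and 165 reads in MYCN KD. The log2 fold change of GPC2 was -0.07 (SE 0.0364, 95% interval -0.18 to 0.04, limma adjusted p = 0.191), an interval that corresponds to ratios of RPKM + 1 from 0.884 to 1.03. Other glypicans differed. GPC1 was read at 13.3 and 11.2 RPKM in Ctrl and at 22.0 and 25.9 RPKM in MYCN KD and rose by 0.92 (SE 0.126, limma adjusted p = 0.0132). GPC6 was read at 2.53 and 2.65 RPKM in Ctrl and at 1.38 and 1.33 RPKM in MYCN KD and fell by 0.61 (SE 0.0417, limma adjusted p = 0.00458). GPC3 and GPC5 were under the filter and GPC4 was listed at 0.

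Of 15 genes that build heparan sulfate chains, 13 passed the filter, of which 4 were higher, none was lower and 9 did not pass, with a median of 0.08. GLCE, the epimerase of the chain's uronic acid, was read at 6.38 and 7.30 RPKM in Ctrl and at 15.6 and 13.7 RPKM in MYCN KD and rose by 1.0 (SE 0.0997, limma adjusted p = 0.00748). NDST2, which starts sulfation of the chain, rose by 0.41 (SE 0.0597, limma adjusted p = 0.0149). The count of higher genes was 2 whichever sample was left out, and 1 gene was lower without Ctrl replicate 1 or without MYCN KD replicate 1. EXTL3, the highest of the list, was at 35.5 and 33.2 RPKM in Ctrl and at 38.6 and 41.2 RPKM in MYCN KD (log2 fold change 0.21, limma adjusted p = 0.0579), and passed after rescaling to the same total (0.02005) and after quantile normalization (0.03088).

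PTK7, a receptor without kinase activity that takes part in planar cell polarity and Wnt signalling, was read at 52.9 and 50.02 RPKM in Ctrl and at 47.4 and 50.03 RPKM in MYCN KD. The groups overlapped. The gene (chr6:43044045-43129457, plus strand, outside the stretch of chromosome 6 named above) had 8023 and 7111 reads in Ctrl and 6123 and 6883 reads in MYCN KD. For PTK7 the log2 fold change was -0.08 (SE 0.0519, 95% interval -0.23 to 0.08, limma adjusted p = 0.289), which corresponds to ratios of RPKM + 1 from 0.853 to 1.05. PTK7 exceeded NCAM1 by 1.34-fold and 1.19-fold in Ctrl and stood at 0.742 and 0.828 of it in MYCN KD. Of 14 partners of PTK7 in planar cell polarity, 12 passed the filter, of which 3 were higher, 2 were lower and 7 did not pass, with a median of 0.04. DVL1, a cytoplasmic Wnt signal relay, was read at 30.2 and 27.9 RPKM in Ctrl and at 18.3 and 19.7 RPKM in MYCN KD and fell by 0.59 (SE 0.0655, limma adjusted p = 0.00897). CELSR2, a planar polarity cadherin, rose by 0.47 (SE 0.055, limma adjusted p = 0.00971). DVL3, the highest of the list, was at 58.6 and 54.5 RPKM in Ctrl and at 63.7 and 68.3 RPKM in MYCN KD (log2 fold change 0.22, limma adjusted p = 0.0604), and passed after rescaling to the same total (0.02096) and after quantile normalization (0.01943).

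**Figure D3:**
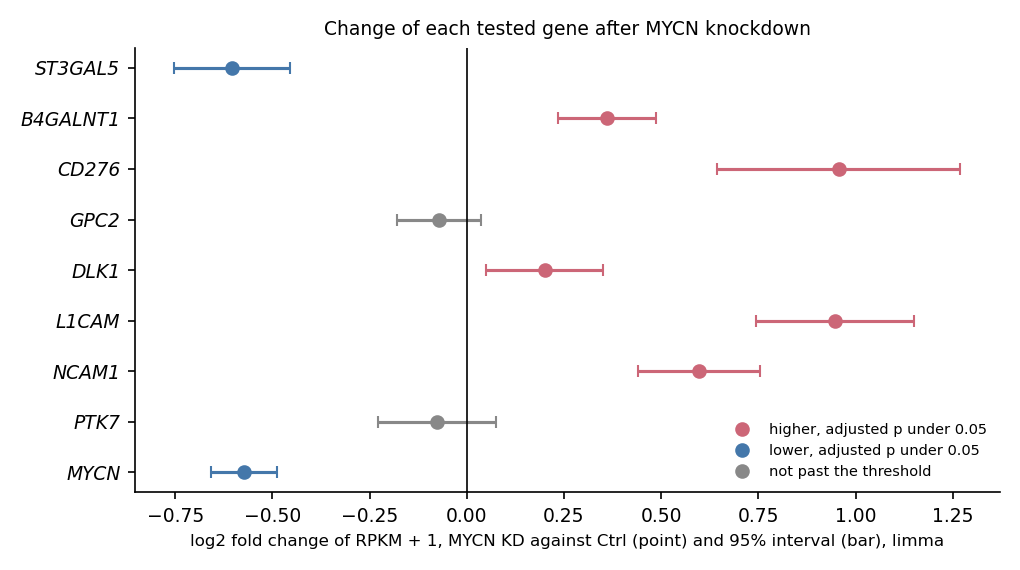
Log2 fold change of RPKM + 1 in MYCN KD against Ctrl (horizontal axis, points) with its 95% interval from limma (bars) for the 8 tested members and MYCN, in red where higher, blue where lower and grey where the adjusted p was not under 0.05. CD276 and L1CAM lie near 0.95, NCAM1 at 0.60, B4GALNT1 at 0.36 and DLK1 at 0.20, ST3GAL5 lies at -0.60, and the bars of GPC2 and PTK7 cross 0.

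The 6 surface proteins together came to 1859 and 1752 summed RPKM in Ctrl and to 2230 and 2369 in MYCN KD. DLK1 made up 79.1% and 79.4% of that sum in the Ctrl samples and 71.7% and 71.3% upon knockdown. L1CAM made up 11.5% and 11.2% with control siRNA and 17.1% and 17.4% upon knockdown, and CD276 made up 4.31% and 3.99% with control siRNA and 6.15% and 6.59% upon knockdown. The share of DLK1 was lower in both MYCN KD samples although its own level was not, and DLK1 stood above L1CAM by 6.89-fold and 7.08-fold in Ctrl and by 4.21-fold and 4.10-fold in MYCN KD. GPC2 was at most 0.125% of the sum in every sample.

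**Figure D4:**
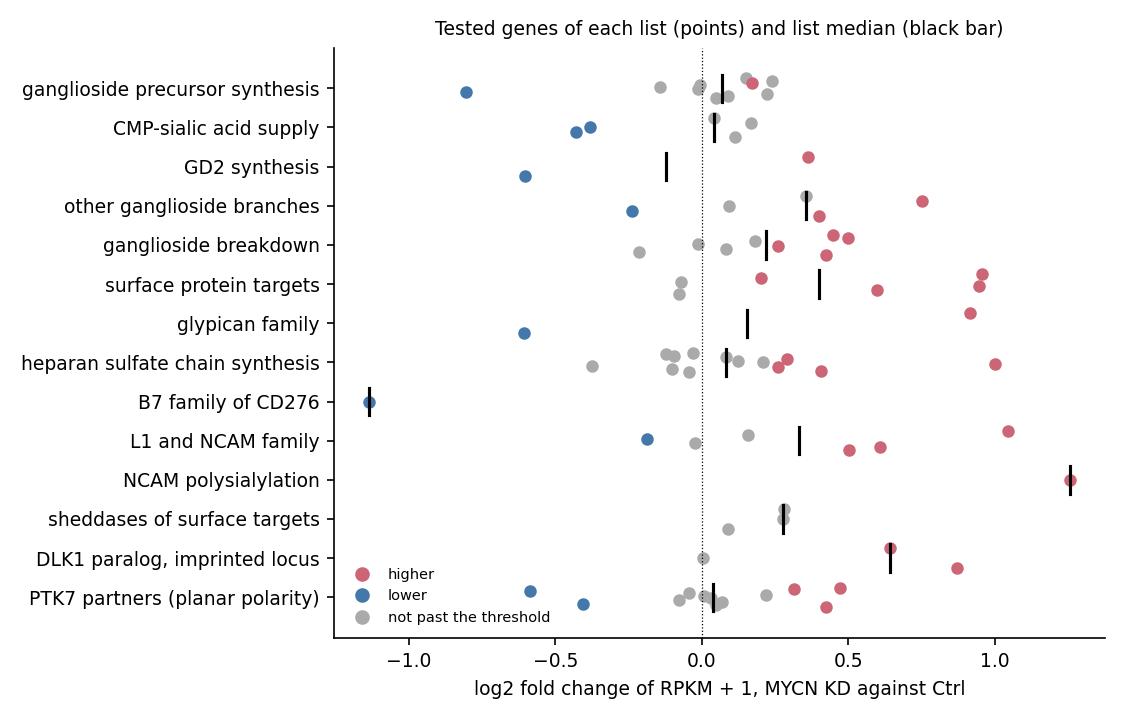
Log2 fold change of RPKM + 1 in MYCN KD against Ctrl (horizontal axis) of the tested genes of 14 lists (vertical axis), 1 point a gene, in red where higher, blue where lower and grey where the adjusted p was not under 0.05, with the list median as a black bar. The medians lie near 0 for precursor synthesis (0.07) and PTK7 partners (0.04), and at 0.40 for the 6 surface protein targets. The list labelled L1 and NCAM family also holds other adhesion molecules of the immunoglobulin superfamily, such as ALCAM and MCAM.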

How the data were processed

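RNA-seq of 4 BE(2)C samples was analysed, grouped by the labels. Reads had been aligned by the authors (HISAT2 2.1.0, hg19), assigned to RefSeq genes (featureCounts) and normalized (DESeq2, RUVSeq), and RPKM from those normalized counts were deposited, 1 file a sample. The RUVSeq variant is not given in the sources used here. Its effect on the spread between samples was not tested.

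After addition of 1 and log2 transformation, genes whose mean reached 1 RPKM were fitted in limma 3.58.1 under R 4.3.3 (lmFit, eBayes with a trend, 2-sided, no block), and p-values were adjusted after Benjamini and Hochberg (threshold 0.05). On this scale the changes of low genes are understated. Reads were recovered from the RPKM steps of small RNA genes, of which 92.92% to 94.06% came out whole within 0.01 read. Recovered reads are counts after RUVSeq, so their intervals only approximate counting error and refer to adjusted and not raw depth. The fit and the recovery were tried on simulated data. The simulated samples for the fit were independent and did not hold the mirrored deviations of the real samples. They therefore do not show whether the SEs and p-values given here are right. Positions and exon overlaps came from GENCODE 44 on GRCh37 and promoters from RefSeq. Python 3.11.15, pandas 2.3.3, numpy 2.4.6, scipy 1.17.1 and matplotlib 3.10.9 were used.

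Alternatives were another pseudocount, other filters, 2 scalings, no variance trend, a replicate block and each sample left out. A crossed block was added after seeing the data. The members and lists were chosen with earlier results of these data known. Text names the 9 members, MYCN and, per list, up to 2 called genes with the largest changes whose groups do not overlap and the highest gene. The highest gene is the one with the highest mean RPKM over all 4 samples. Genes named outside that rule (ST8SIA4, ST8SIA5, NEU1, B3GALT4, CD274, C10orf54, SPTLC1, B4GALT6, GPC3, GPC4, GPC5, MEG8, PTPRC, KRT5, PRRX1, MCAM, TAP1, HLA-E, SLC26A10 and antisense genes) were chosen after their values were seen. Some genes that the lists count are not reported here by name.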

Additional observations from a re-analysis of the deposited data

How the results depend on the processing

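ST3GAL5, CD276, L1CAM, NCAM1 and MYCN kept their direction and call in every alternative run for single genes, where GPC2 and PTK7 passed in none. ST3GAL5 ranged from -0.74 to -0.56 on the log2 scale, CD276 from 0.86 to 1.05, L1CAM from 0.89 to 1.01 and NCAM1 from 0.56 to 0.66. DLK1 passed in 5 of 12 fits, the reported one included and the crossed block left out. It stayed at 0.20 but lost its call with no filter on low values (limma adjusted p = 0.092), without a trend (0.0552) and with the replicate block (0.233), and ranged from 0.16 to 0.24 with samples left out. With the replicate block B4GALNT1 stayed at 0.36 with an adjusted p of 0.0608, the members called higher were 3 rather than 5, and 2077 genes were higher and 1851 lower, against 2890 and 2599 without it. The deviations of same-numbered samples mirrored each other: across tested genes they correlated at -0.985, with 99.3% of the residual variance on 1 axis. The 4 samples thus carry little independent information on replicate error. The reported fit counted 2 residual degrees of freedom, as for independent samples. Its SEs, intervals and adjusted p-values may therefore be misjudged, by an amount that was not tested. With the crossed block, added after seeing the data, 5910 genes were higher and 5262 lower, and 3 members were lower, which were ST3GAL5, GPC2 and PTK7. Under a minimum mean of 5 RPKM, no member was lower (0), because ST3GAL5 and GPC2 were not tested, and 1868 genes were higher and 2106 lower. With no filter 3384 were higher and 2594 lower, with the same total 3279 and 2122, and with quantile normalization 2901 and 2993; the cause was not tested. The scalings moved the median of all genes from 0.03 to 0.08 and to 0.00. B2M, not called in any of these, went from -0.05 to 0.01274 with the same total and to 0.06725 with quantile normalization. Of 41 counts and medians, those of the lists included, 7 or 8 moved with a sample left out, 10 with the block, 9 under the minimum of 5 RPKM, 5 with no filter and 4 with either scaling. Fits with the replicate block and without 1 sample had 1 residual degree of freedom and took the variance from the trend over all genes. Low counts limit ST8SIA1, and RPKM after RUVSeq hold no raw depth.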

Other observations

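Surface genes that bear on how immune cells read a tumor cell were also measured. Of 5 shields against complement and phagocytosis, 1 was higher, 1 was lower and 3 did not pass. CD24, a surface glycoprotein bound by the macrophage receptor Siglec-10, was read at 2.79 and 3.16 RPKM in Ctrl and at 8.76 and 7.76 RPKM in MYCN KD and rose by 1.22 on the log2 scale (SE 0.0872, limma adjusted p = 0.00476). CD55, which speeds the decay of complement convertases, was read at 4.10 and 4.57 RPKM in Ctrl and at 2.07 and 1.87 RPKM in MYCN KD and fell by 0.85 (SE 0.0711, limma adjusted p = 0.00588). CD46, the highest of the list, was at 20.1 and 25.7 RPKM in Ctrl and at 19.0 and 14.99 RPKM in MYCN KD (log2 fold change -0.41, limma adjusted p = 0.146), and it passed as lower without Ctrl replicate 1 (-0.58, adjusted p = 9.148e-05) or without MYCN KD replicate 1 (-0.57, 0.0002046).

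Of 10 ligands of natural killer cell receptors, 4 passed the filter, of which 2 were higher, 1 was lower and 1 did not pass. PVRL2, also called NECTIN2, was read at 21.7 and 20.6 RPKM in Ctrl and at 38.6 and 40.7 RPKM in MYCN KD and rose by 0.88 (SE 0.0517, limma adjusted p = 0.00413). NCR3LG1 was the lower gene. Of 13 genes of MHC class I presentation, 3 passed the filter and none was called. B2M, the light chain of class I, was at 683.5 and 730.2 RPKM in Ctrl and at 705.1 and 662.0 RPKM in MYCN KD (log2 fold change -0.05, 95% interval -0.22 to 0.12, limma adjusted p = 0.524), a sign that turned with other scalings. Without Ctrl replicate 2 or without MYCN KD replicate 2, 1 of the 3 passed as lower. Of the genes of all lists, 13 lie in the chromosome 6 stretch from 28 to 34 Mb, and 11 of them, TAP1 and HLA-E included, were under 0.1 RPKM in all samples.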
